A study of Mus musculus with 18 samples.

Results

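The H2 genes are the mouse major histocompatibility complex genes, and they were described here in bulk RNA-seq of mouse aorta. The members were all gene symbols of the deposited count tables that start with H2-, which gave 45 genes of 55453. The study edited a CArG box, a binding site for serum response factor (SRF), in the promoter of Tspan2. One experiment used Cas9 with homology-directed repair (HDR) to install a three-base substitution, and the other used prime editing 2 (PE2) to install a single-base substitution in the same box. The HDR libraries were 5 from wild-type mice and 5 from mice homozygous for the substitution (Tspan2 sg/sg), all 12 weeks old, labelled C57BL/6, with 3 females and 2 males in each group. The PE2 libraries were 4 from wild-type mice and 4 from homozygotes (Tspan2 peg/peg), all 8 weeks old and labelled FVB/N/B6(Cg)-Tyrc-2J/J. All PE2 animals were female apart from wild type 4. Per the study's methods, the oocytes edited in both experiments came from FVB/NJ females mated to B6(Cg)-Tyr2J/J males, the founders were crossed to C57BL/6J and heterozygotes were intercrossed, and each library came from a single aorta cleaned of periadventitial tissue. The wild types of both experiments therefore share that tissue and preparation with the mutants. The 2 experiments differ from each other in age, strain label, share of males, sequencing depth and edit, and these cannot be told apart. HDR libraries are numbered as in the deposited table, where the numbers run from 2 to 6 and cannot be matched to single labelled animals or to their sex.

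Class I genes encode the heavy chains that pair with beta-2 microglobulin and display peptides from inside the cell on nearly every nucleated cell. Class II genes encode the alpha and beta chains that display peptides taken up from outside, mainly on macrophages, dendritic cells and B cells. The H2 region of chromosome 17 differs between inbred strains in sequence and in gene content. C57BL/6 mice carry haplotype b, in which the class II gene for the E alpha chain is not transcribed, and FVB/N mice carry haplotype q. The reads were aligned to the C57BL/6J reference, and the H2 haplotype of each library was not tested.

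Total counts ran from 17290992 to 24880385 in the HDR libraries and from 38820265 to 44895615 in the PE2 libraries. Levels are given as CPM, the read count scaled to a common library total with trimmed mean (TMM) factors over all 18 libraries, and a count of 0 allows up to 3 counts, or 0.125 to 0.168 CPM in an HDR library and 0.0656 to 0.0799 CPM in a PE2 library, for counting error only. The edited gene Tspan2 lay between 113 and 264 CPM in HDR wild types, between 15.8 and 36.9 CPM in sg/sg, between 180 and 290 CPM in PE2 wild types and between 11.9 and 25.4 CPM in peg/peg. The 6 smooth muscle markers summed to between 15681 and 52164 CPM over the libraries. PE2 peg/peg 3 stood apart, with 753 CPM of skeletal muscle actin Acta1 against at most 76.9 CPM in any other library, 185 CPM of the endothelial marker Pecam1 against at least 377 CPM elsewhere, and 1.36 CPM of the brown fat gene Ucp1 against at least 88.0 CPM elsewhere. Values without this library are given beside some of the results below that it moves.

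The members lie on chromosome 17 between 33974659 and 37483552 (GRCm38, Gencode M21 annotation), a span of 3.51 Mb. RefSeq promoter windows of 250 bases before to 50 bases after a start site (GRCm38.p6) were at hand for 32 of the 45 members, in 35 entries. CCAAT, the core of the NF-Y site that forms the Y box of class II promoters, was present on either strand in 31 of these 35 windows and in 37.4% of all 32851 windows. GAAANNGAA, a core of the interferon response element, was present in 2 of the 35 and in 8.56% of all. TATAAA was present in 16 of the 35 and in 13.6% of all, and TGACG, which is part of the X2 box, in 13 of the 35 and in 20.8% of all. Motifs were searched as exact letters on both strands, so variants of an element were not counted and a window without a match may still hold one. Matches may overlap by chance, and a match is a description of the letters alone. The windows of 6 members that the results below turn on are printed. They show the class I layout in H2-K1, H2-D1 and H2-Q2 and the class II layout in H2-Aa and H2-Eb1. That of H2-T22 shows the GAAANNGAA match. Capitals mark CCAAT and GAAANNGAA on either strand.
H2-K1 (chr17:34000298-34000597, minus strand): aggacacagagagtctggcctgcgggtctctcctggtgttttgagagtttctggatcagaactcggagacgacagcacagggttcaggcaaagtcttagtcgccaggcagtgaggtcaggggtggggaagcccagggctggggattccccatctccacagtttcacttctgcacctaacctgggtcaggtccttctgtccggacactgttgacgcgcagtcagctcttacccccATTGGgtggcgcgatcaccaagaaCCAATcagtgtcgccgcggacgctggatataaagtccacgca
H2-D1 (chr17:35262844-35263143, plus strand): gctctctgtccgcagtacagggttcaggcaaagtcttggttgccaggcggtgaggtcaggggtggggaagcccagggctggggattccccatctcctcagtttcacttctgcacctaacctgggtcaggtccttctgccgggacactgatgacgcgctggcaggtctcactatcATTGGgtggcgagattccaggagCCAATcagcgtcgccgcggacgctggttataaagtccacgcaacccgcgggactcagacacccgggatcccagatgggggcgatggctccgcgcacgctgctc
H2-Q2 (chr17:35342057-35342356, plus strand): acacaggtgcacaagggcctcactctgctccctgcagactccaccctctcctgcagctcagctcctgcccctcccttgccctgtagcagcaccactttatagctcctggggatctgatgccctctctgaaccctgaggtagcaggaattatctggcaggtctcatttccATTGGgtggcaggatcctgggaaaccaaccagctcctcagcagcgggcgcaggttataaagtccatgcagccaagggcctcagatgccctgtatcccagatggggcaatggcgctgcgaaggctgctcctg
H2-T22 (chr17:36042693-36042992, minus strand): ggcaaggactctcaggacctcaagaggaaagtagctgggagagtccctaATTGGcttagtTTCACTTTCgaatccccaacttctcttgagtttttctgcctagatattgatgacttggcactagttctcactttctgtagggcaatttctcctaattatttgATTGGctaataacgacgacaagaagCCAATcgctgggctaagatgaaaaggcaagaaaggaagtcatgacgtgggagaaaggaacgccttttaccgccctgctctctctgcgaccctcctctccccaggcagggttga
H2-Aa (chr17:34287774-34288073, minus strand): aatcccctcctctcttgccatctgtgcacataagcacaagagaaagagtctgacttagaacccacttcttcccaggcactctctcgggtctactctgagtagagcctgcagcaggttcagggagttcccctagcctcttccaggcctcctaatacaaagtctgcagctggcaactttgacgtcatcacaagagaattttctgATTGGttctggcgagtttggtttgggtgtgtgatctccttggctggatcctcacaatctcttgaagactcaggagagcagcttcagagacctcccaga
H2-Eb1 (chr17:34305617-34305916, plus strand): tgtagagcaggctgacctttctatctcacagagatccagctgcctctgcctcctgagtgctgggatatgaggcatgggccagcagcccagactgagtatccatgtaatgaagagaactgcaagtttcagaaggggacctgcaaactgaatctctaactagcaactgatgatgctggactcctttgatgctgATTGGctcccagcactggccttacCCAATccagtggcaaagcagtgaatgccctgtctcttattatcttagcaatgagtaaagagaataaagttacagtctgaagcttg
H2-K1 and H2-D1 each held CCAAT once on each strand, with TATAAA downstream of both copies. H2-Q2 held only a reverse-strand copy, with TATAAA at position -27 from its start and, on the reverse strand, at -155. H2-Eb1 held a copy on each strand and no TATAAA, and H2-Aa held 1 reverse-strand copy at position -48 together with TGACG at positions -74 and, on the reverse strand, -71. TGACG was not confined to class II. It also lay in the printed windows of H2-K1, at -41, H2-D1, at -101, and H2-T22, at -22, and was absent from H2-Eb1 and H2-Q2. H2-T22 was the only printed window with GAAANNGAA, on the reverse strand at position -190. No window was at hand for H2-Ab1, H2-T10, H2-T24 or H2-Bl.

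Of the 45 members, 34 are annotated as protein coding and 11 as pseudogenes of several kinds. A total of 43 had at least 1 count. H2-M10.5-ps1 and H2-M10.6 had none in any library. The filter on low counts kept 21 members in the HDR comparison and 27 in the PE2 comparison, and 16 members with counts were tested in no comparison. By class, the HDR and PE2 comparisons tested 2 and 2 of 2 classical class I genes, 5 and 7 of 8 Q genes, 4 and 5 of 6 T genes, 2 and 3 of 15 M genes with H2-Bl, 3 and 3 of 7 classical class II genes, 4 and 5 of 5 class II peptide loading genes, and 1 and 2 of 2 others. The M10 genes, known from vomeronasal neurons, reached at most 3 counts each over the 10 HDR libraries and 0 over the 8 PE2 libraries. All members together took between 0.0466% and 0.143% of a library's counts.

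Per kilobase of exon, H2-D1 was the highest member in all 4 groups, with 108 ± 38.6 CPM per kb in HDR wild types (SD, n = 5) and 203 ± 57.8 CPM per kb in PE2 wild types (SD, n = 4). H2-K1 followed in each group, with 76.3 ± 34.1 and 124 ± 47.2 CPM per kb in the same wild types. These are the classical class I heavy chains. The next member was H2-Eb1, the E beta chain, in HDR wild types, at 17.5 ± 9.85 CPM per kb, and H2-Q4 in PE2 wild types and sg/sg, at 15.5 ± 2.92 and 12.7 ± 3.11 CPM per kb. In peg/peg it was H2-Aa, at 20.3 ± 21.1 CPM per kb, and H2-Q4 without peg/peg 3, at 18.3 ± 8.81 CPM per kb (SD, n = 3). The order below H2-K1 was set by values that lay within 1 SD of each other, with H2-Aa, H2-Q4 and H2-Ab1 at 14.9, 14.6 and 13.7 CPM per kb in HDR wild types. H2-K1 and H2-D1 together held between 54.7% and 83.7% of the H2 counts of a library, with the highest shares in PE2 wild types 2 and 3, at 83.7% and 82.8%.

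Tspan2 sg/sg aortas were first compared with HDR wild types, which asks whether the edit goes with a change in these genes. None of the 21 tested members passed an adjusted p of 0.05 with edgeR's quasi-likelihood test, against 1 called gene, Tspan2 itself, of 16423, or 0.00609%. At an unadjusted p under 0.05, 3 members were lower, or 14.3% of 21, against 1.98% of all genes, namely the classical class II chains H2-Ab1, H2-Eb1 and H2-Aa. The median log2 fold change of the 21 members was -0.21, against 0.0030 over all genes, and 19 of 21 were negative, against 50.9% of all genes positive. H2-Ob, the beta chain of the class II modulator DO, was the positive member with the smallest p, with a log2 fold change of 0.57 ± 0.61 (SE, n = 5 per group).

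H2-K1 was at 192, 162, 158, 210 and 399 CPM in HDR wild types 2 to 6 and at 145, 161, 197, 193 and 145 CPM in sg/sg 2 to 6. The groups overlapped, and wild type 6 was far above all the others. The means were 224 ± 100.1 and 168 ± 25.3 CPM (SD, n = 5 each, exact permutation test, two-sided p = 0.23). H2-D1 was at 246, 210, 213, 270 and 450 CPM in wild types 2 to 6 and at 199, 201, 245, 273 and 209 CPM in sg/sg 2 to 6. Wild type 6 was again the highest and the groups again overlapped, with means of 278 ± 99.5 and 226 ± 32.4 CPM (SD, n = 5 each, exact permutation test, two-sided p = 0.29).

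H2-Ab1, the A beta chain, was at 26.7, 38.6, 19.6, 26.0 and 64.7 CPM in HDR wild types 2 to 6 and at 15.6, 24.4, 19.5, 26.5 and 14.8 CPM in sg/sg 2 to 6. The groups overlapped, although 3 wild types exceeded every mutant. The log2 fold change was -0.81 ± 0.30 (SE, edgeR unadjusted p = 0.021, adjusted p = 1.00), and the means of 35.1 ± 17.9 and 20.2 ± 5.20 CPM (SD, n = 5 each) gave p = 0.056 in an exact permutation test (two-sided), where the smallest possible p is 0.0079. H2-Aa, the A alpha chain, was at 42.4, 63.9, 32.3, 44.7 and 100.4 CPM in wild types and at 28.1, 50.3, 29.5, 46.6 and 24.2 CPM in sg/sg. Its groups overlapped as well, with a log2 fold change of -0.68 ± 0.31 (SE, edgeR unadjusted p = 0.049, adjusted p = 1.00) and an exact permutation p of 0.16. H2-Eb1 was at 21.6, 36.7, 20.4, 25.3 and 66.3 CPM in wild types and at 16.4, 23.7, 16.4, 28.9 and 13.7 CPM in sg/sg, a log2 fold change of -0.79 ± 0.33 (SE, edgeR unadjusted p = 0.036, adjusted p = 1.00).

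Macrophage markers did not pass the test either, and their values were lower in sg/sg. All 10 genes of the macrophage and monocyte list (Csf1r, Adgre1, Cd68, Mrc1, Lyz2, C1qa, C1qb, Fcgr1, Lyve1 and Cd163) had negative log2 fold changes, from -0.95 to -0.43, 8 of them at an unadjusted p under 0.05, against 1.98% of all genes, and none after adjustment over all genes. Their summed level ran from 304 to 829 CPM in HDR wild types and from 229 to 411 CPM in sg/sg, and no marker of the list was at 0. The dendritic cell list had a median log2 fold change of -0.33 over 4 tested genes, and the B cell list 0.53 over 6. No gene of these lists reached an unadjusted p under 0.05. The part of macrophages and of these cells in the class II difference was not tested. In bulk tissue fewer cells of a type and less RNA per cell cannot be told apart. Wild type 6 held the highest level of 16 of the 21 tested members, and sg/sg 6 held the lowest level of 14. Of the HDR libraries, wild type 6 also had the highest macrophage sum and the highest B cell sum, at 86.4 CPM against 13.8 to 35.1 CPM in the others, and the highest T cell, NK cell, Ptprc and fat sums, and the part of these cells was not tested. Without wild type 6, no member reached an unadjusted p under 0.05, 15 of 21 were negative, and 2 of the 10 macrophage genes reached it, with log2 fold changes from -0.65 to -0.16. The log2 fold change of H2-Ab1 was then -0.46, of H2-Eb1 -0.40, of H2-Aa -0.36, of H2-D1 -0.060 and of H2-K1 -0.10.

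Across libraries, with wild types and mutants pooled, H2-Ab1 followed the macrophage sum in both experiments, on log2 scales. The permutations ignored genotype, so a difference between genotypes can enter these relations, and its part was not tested. In the 10 HDR libraries, Pearson's r was 0.895 (permutation p = 0.0022, adjusted over 4 relations 0.0044) and Spearman's rho was 0.758 (permutation p = 0.015, adjusted 0.020). In the 8 PE2 libraries, r was 0.973 (exact permutation p = 0.00094, adjusted 0.0038) and rho was 0.952 (exact permutation p = 0.0011, adjusted 0.0046). After leaving out the 2 libraries farthest from the median sum, r was 0.794 and 0.846. H2-K1 gave r = 0.873 in the HDR libraries (permutation p = 0.0079, adjusted 0.010) and rho = 0.806 (permutation p = 0.0072, adjusted 0.014), but r fell to 0.440 without HDR wild types 5 and 6, so this relation rests on them. In the PE2 libraries r was -0.40 for H2-K1 (exact permutation p = 0.32, adjusted 0.32) and rho was -0.36 (exact permutation p = 0.39, adjusted 0.39), and without PE2 wild type 3 and peg/peg 3 r was -0.37.

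**Figure D1:**
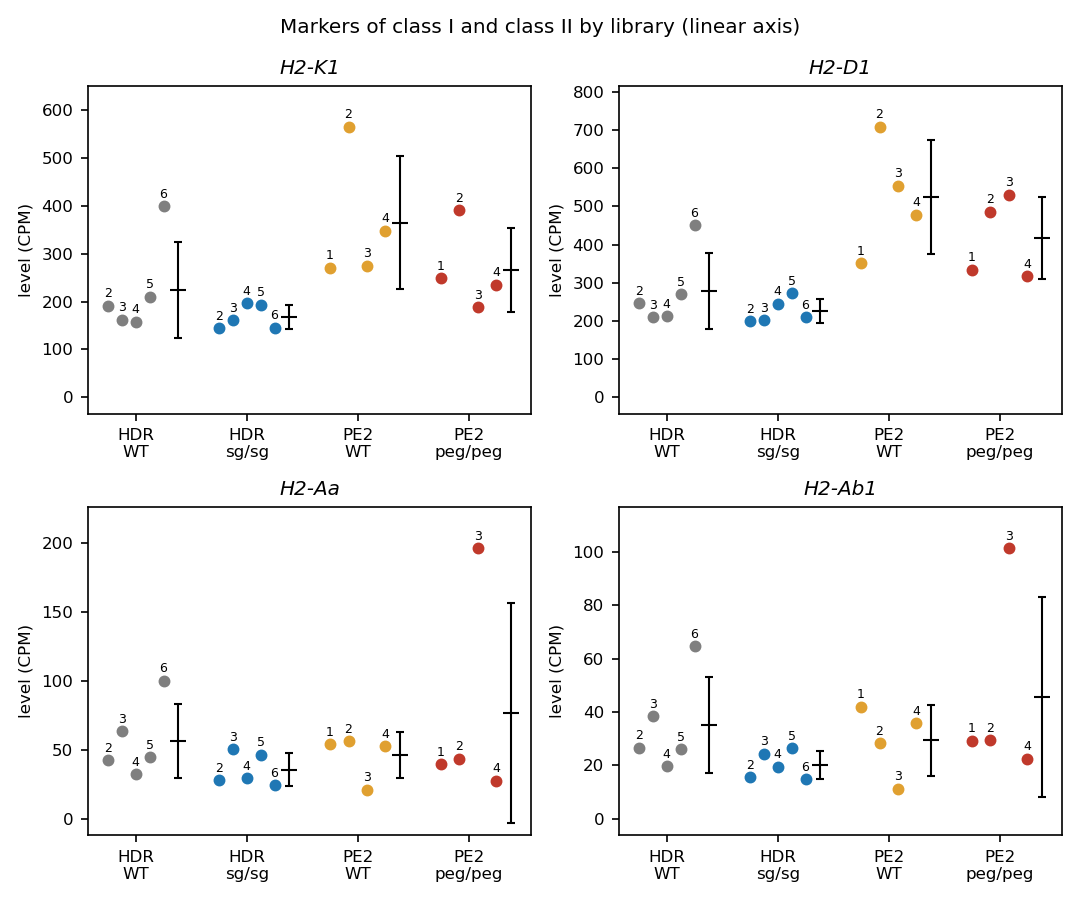
TMM-scaled CPM (linear axis) of H2-K1, H2-D1, H2-Aa and H2-Ab1 in each library, numbered within its group, with the mean and SD as a black bar beside each group (n = 5 per HDR group, n = 4 per PE2 group). HDR wild type 6 and PE2 peg/peg 3 lie above the rest of their groups for H2-Aa, at 100.4 and 197 CPM, and H2-D1 is at 317.003 CPM or more in each PE2 library and at 273 CPM or less in each HDR library other than wild type 6.

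Tspan2 peg/peg aortas were compared with PE2 wild types next. None of the 27 tested members passed an adjusted p of 0.05 (edgeR) and none reached an unadjusted p under 0.05, against 1 called gene, Tspan2, of 16401, or 0.0061%. The median log2 fold change of the members was 0.31, against 0.013 over all genes, with 16 positive and 11 negative. Their median SE was 0.65, against 0.22 over all genes, which were not matched to the members for level. H2-Q1, H2-Q2, H2-Bl and H2-T-ps had SEs of 1.51, 1.70, 1.79 and 1.28. These 4 passed the count filter through the libraries where they were high, so their large SEs were fixed beforehand. The smallest p on the negative side was that of H2-T24, a T-region class I gene, at 5.50, 8.66, 9.90 and 9.02 CPM in wild types 1 to 4 and 4.98, 7.64, 4.44 and 3.38 CPM in peg/peg 1 to 4. Its groups overlapped, with a log2 fold change of -0.67 ± 0.30 (SE, edgeR unadjusted p = 0.054, adjusted p = 0.86). On the positive side it was H2-Q6, a Qa-2 gene, at 16.0, 12.7, 7.70 and 9.09 CPM in wild types and 17.8, 51.5, 8.94 and 16.5 CPM in peg/peg. The groups overlapped and peg/peg 2 was the highest, with a log2 fold change of 1.08 ± 0.53 (SE, edgeR unadjusted p = 0.077, adjusted p = 0.86).

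The markers did not separate the PE2 genotypes. H2-K1 was at 271, 566, 275 and 348 CPM in wild types 1 to 4 and at 249, 391, 188 and 236 CPM in peg/peg 1 to 4 (exact permutation test, two-sided p = 0.31, where the smallest p 4 against 4 libraries allow is 0.029). H2-D1 was at 352, 709, 554 and 478 CPM in wild types and at 334, 486, 531 and 317.003 CPM in peg/peg (exact permutation p = 0.26). H2-Aa was at 54.2, 56.4, 21.1 and 52.6 CPM in wild types and at 39.7, 43.7, 197 and 27.7 CPM in peg/peg (exact permutation p = 0.83). Peg/peg 3 alone lay above every wild type, and peg/peg 1, 2 and 4 lay within the wild-type range. H2-Ab1 was at 42.1, 28.3, 11.3 and 35.9 CPM in wild types and at 29.2, 29.4, 101 and 22.6 CPM in peg/peg (exact permutation p = 0.63). The fitted log2 fold changes of H2-Aa and H2-Ab1, 0.74 ± 0.65 and 0.63 ± 0.58 (SE), changed sign to -0.31 and -0.13 without peg/peg 3. That library also had the highest macrophage sum, 966 CPM against 175 to 598 CPM in the other PE2 libraries. Its Ptprc level, 14.1 CPM, was the highest in PE2 too. Of the dendritic cell list, Flt3, Itgax, Cd209a, Clec9a and Xcr1 were highest in peg/peg 3, Zbtb46 was lowest, and Ccr7 and Batf3 were neither. Its dendritic and B cell sums, 28.8 and 54.3 CPM, lay inside the range of the other PE2 libraries. The part of any of these cells in its class II levels was not tested.

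The spread among PE2 libraries was largest in some members of the Q, T and E regions and in H2-Bl and H2-M9, and it ran across the genotype labels. H2-Q2, a Q-region class I gene, had 7, 371, 414 and 271 counts in PE2 wild types 1 to 4 and 2, 12, 385 and 0 counts in peg/peg 1 to 4. In the 10 HDR libraries it never exceeded 3 counts. Wild types 2, 3 and 4 and peg/peg 3 were thus high and the other 4 PE2 libraries were close to the HDR libraries. H2-T10, a T-region class I gene annotated as a polymorphic pseudogene, was at 0.93, 15.1, 12.4 and 6.89 CPM in wild types 1 to 4 and at 1.498, 1.61, 15.1 and 1.28 CPM in peg/peg 1 to 4, against 0.64 to 1.80 CPM in HDR libraries. The same 4 libraries were high. H2-Bl had 1, 164, 132 and 101 counts in wild types and 2, 0, 175 and 0 in peg/peg, H2-T-ps had 8, 180, 138 and 80 and then 13, 8, 318 and 11, and H2-Q1 had 3, 70, 24 and 46 and then 1, 2, 100 and 0. The HDR libraries reached at most 2 counts for H2-Bl, 7 for H2-T-ps and 3 for H2-Q1.

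Other members were low in the same libraries. H2-Eb1 was at 38.5, 2.40, 2.72 and 19.2 CPM in PE2 wild types 1 to 4 and at 30.7, 32.4, 2.78 and 20.4 CPM in peg/peg 1 to 4, against 13.7 to 66.3 CPM in HDR libraries. Wild types 2 and 3 and peg/peg 3 lay below every HDR library, and wild type 4 lay inside the HDR range. H2-T22, a T-region class I gene known as a ligand of gamma delta T cells, was at 43.0, 4.04, 6.70 and 20.8 CPM in wild types and at 39.3, 44.2, 4.29 and 40.3 CPM in peg/peg, against 19.4 to 37.3 CPM in HDR libraries. Again wild types 2 and 3 and peg/peg 3 were below the HDR range, wild type 4 was inside it, and the other 4 PE2 libraries were above it. H2-T23, which encodes Qa-1, the peptide-presenting ligand of NK cell receptors, was at 43.4, 11.3, 11.6 and 19.6 CPM in wild types and at 37.5, 47.4, 13.5 and 25.7 CPM in peg/peg. Wild types 2, 3 and 4 and peg/peg 3 lay below the HDR minimum of 24.9 CPM. H2-Q5 had 76, 8, 8 and 27 counts in wild types and 66, 154, 0 and 64 in peg/peg, and H2-Q7 was below its HDR minimum of 4.18 CPM in wild types 2, 3 and 4 and peg/peg 3.

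H2-Ea-ps, the E alpha gene that C57BL/6 does not transcribe, had 0, 25, 6 and 16 counts in PE2 wild types 1 to 4 and 0, 0, 107 and 0 in peg/peg 1 to 4. In the HDR libraries it had 2 counts in sg/sg 4 and 0 in the other 9. The 4 PE2 libraries with a count were the 4 that were high for H2-Q2. H2-M9 did not follow the same libraries, with 2.65, 1.97, 12.8 and 1.94 CPM in wild types 1 to 4 and 2.71, 2.66, 0.022 and 0.93 CPM in peg/peg 1 to 4. Wild type 3 alone was high and peg/peg 3 had 1 count.

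**Figure D2:**
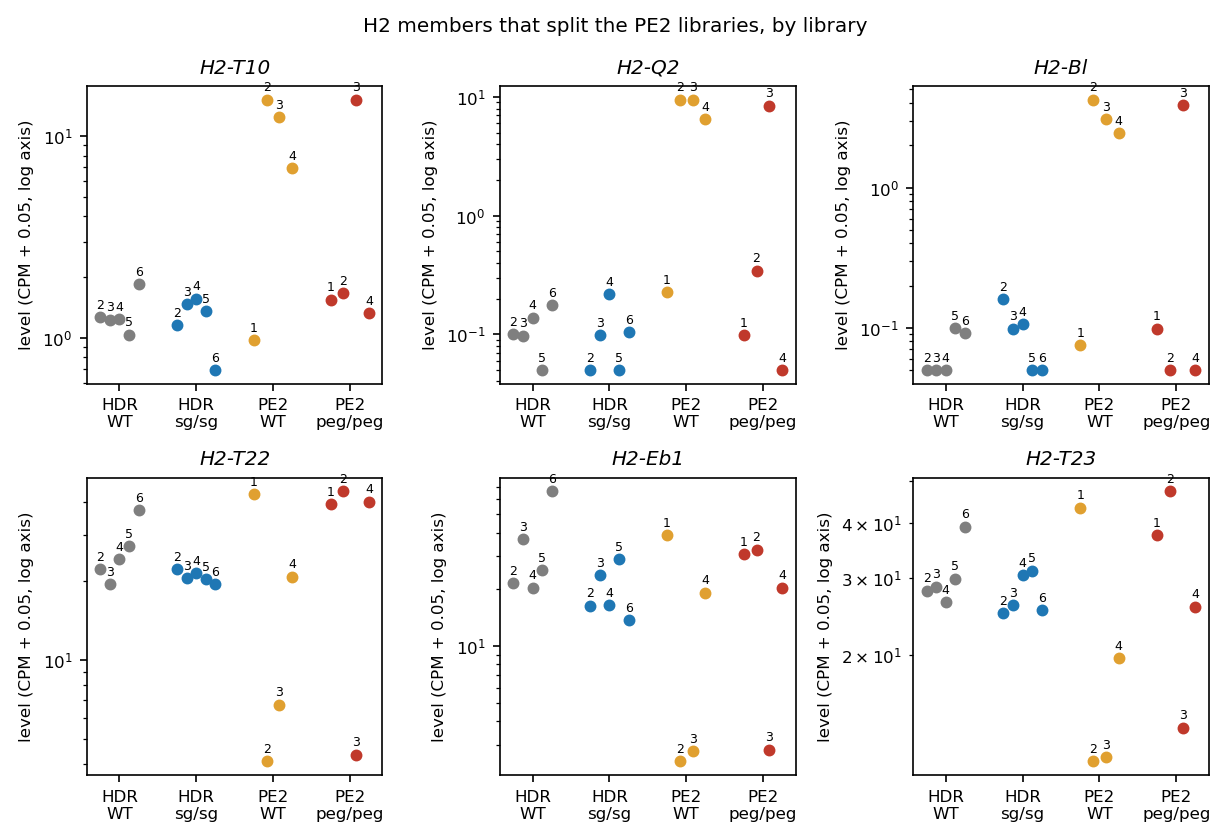
CPM plus 0.05 (log axis) of H2-T10, H2-Q2, H2-Bl, H2-T22, H2-Eb1 and H2-T23 in each library, numbered within its group. PE2 wild types 2 and 3 and peg/peg 3 lie apart from the HDR libraries in all 6 panels, with H2-T10 at 15.1, 12.4 and 15.1 CPM and H2-Eb1 at 2.40, 2.72 and 2.78 CPM.

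A ratio of 2 members within a library does not depend on that library's depth. The ratio of H2-T10 to H2-T22 counts ran from 0.033 to 0.071 over the HDR libraries, a 2.14-fold range. In PE2 it was 0.021, 3.74, 1.85 and 0.332 in wild types 1 to 4 and 0.038, 0.036, 3.53 and 0.032 in peg/peg 1 to 4, a 174-fold range. The ratio of H2-Eb1 to H2-Ab1, both beta chains of class II, ran from 0.808 to 1.09 over the HDR libraries, and was 0.916, 0.0849, 0.241 and 0.535 in PE2 wild types and 1.05, 1.10, 0.0274 and 0.904 in peg/peg. Wild types 2 and 3 and peg/peg 3 were low for the E beta chain relative to the A beta chain, wild type 4 lay between, and the other 4 libraries were within 0.904 to 1.10. The ratio of H2-T23 to H2-D1 ran from 0.087 to 0.136 over the HDR libraries, and was 0.123, 0.016, 0.021 and 0.041 in PE2 wild types and 0.112, 0.098, 0.026 and 0.081 in peg/peg. The ratio of H2-Aa to H2-Ab1, the 2 chains of 1 dimer, stayed between 1.51 and 2.06 in HDR and between 1.23 and 1.99 in PE2.

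**Figure D3:**
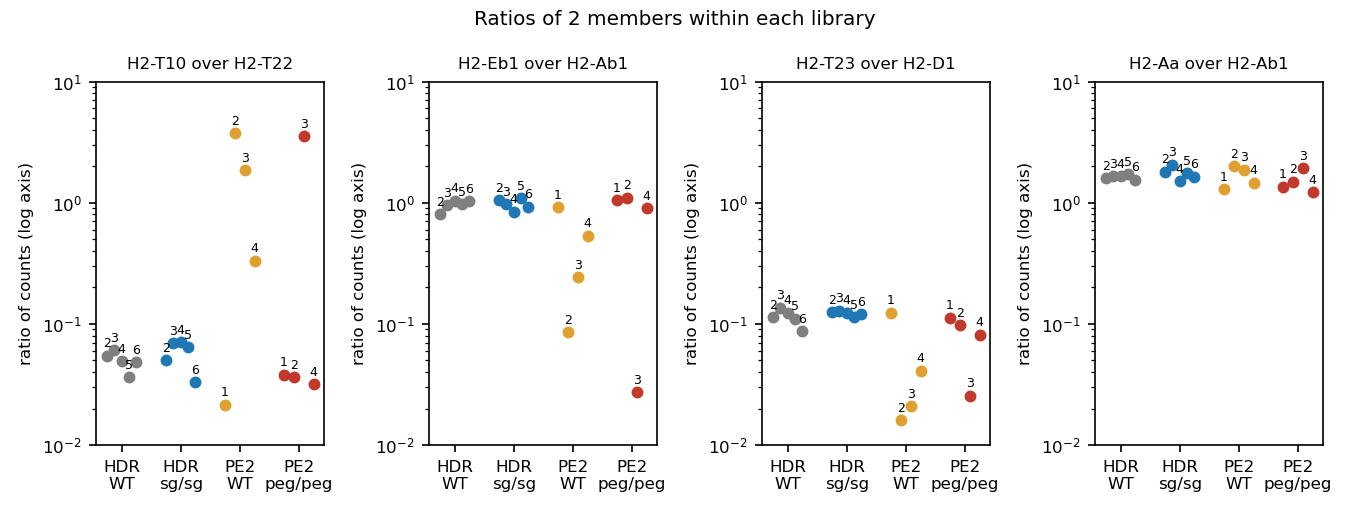
Ratio of counts of 2 members within each library (log axis) for H2-T10 over H2-T22, H2-Eb1 over H2-Ab1, H2-T23 over H2-D1 and H2-Aa over H2-Ab1, with libraries numbered within their group. The first ratio spans 0.021 to 3.74 in PE2 and 0.033 to 0.071 in HDR, whereas H2-Aa over H2-Ab1 stays between 1.23 and 2.06 in all libraries.

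The within-group SD of log2(CPM + 0.5) put these values beside all genes. Among the 21 members tested in both within-experiment comparisons, its median was 0.452 in HDR and 0.833 in PE2, against 0.265 and 0.255 over the 14761 genes tested in both. No member exceeded an SD of 1 in HDR, where 1.00% of all genes did. In PE2, 6 of 21 members did, against 4.87% of all genes. These were H2-Eb1 at 1.73, H2-T10 at 1.54, H2-T22 at 1.52, H2-Q10 at 1.52, H2-M9 at 1.21 and H2-Q5 at 1.10. H2-M3, H2-D1, H2-T24 and H2-Q4 stayed at 0.24, 0.40, 0.40 and 0.41. The SD was larger in PE2 than in HDR for 18 of 21 members, against 52.5% of all genes. The 84 other genes tested in both that lie between the outermost members had medians of 0.280 in HDR and 0.228 in PE2, and 1 of them exceeded 1 in PE2. Without peg/peg 3, the members' median was 0.566 in PE2 and 5 of 21 exceeded 1, all those named but H2-Q5, against a median of 0.209 and 1.06% over all genes, and the SD was larger than in HDR for 19 of 21 members, against 35.6% of all genes.

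The PE2 libraries were then set against the range of all 10 HDR libraries, gene by gene. Of the 26 members tested over all 18 libraries, 9 left the HDR range upward or downward in exactly PE2 wild types 2, 3 and 4 and peg/peg 3, or in exactly these without wild type 4. H2-Q1, H2-Bl, H2-T-ps and H2-T10 lay above the range, and H2-Q5, H2-Q7, H2-T23, H2-Eb1 and H2-T22 lay below it. The same held for 5 of the 99 other tested genes between the outermost members, 6 of the 665 tested elsewhere on chromosome 17, and 0.321% of the 17147 on other chromosomes. These sets of libraries were chosen after the H2 values were seen, so the counts are a description with no test. H2-Q1, H2-Bl and H2-T-ps also passed the count filter through the libraries where they were high, so their entry among the upward members was fixed beforehand. With peg/peg 3 left out and the same wild types asked for, the 9 members stayed the same, and the counts were 5 of 99, 31 of 665 and 1.11% of 17147. H2-Q2 fell outside the count because PE2 wild type 1 and peg/peg 2 also passed its HDR maximum of 0.168 CPM, at 0.175 and 0.293 CPM.

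**Figure D4:**
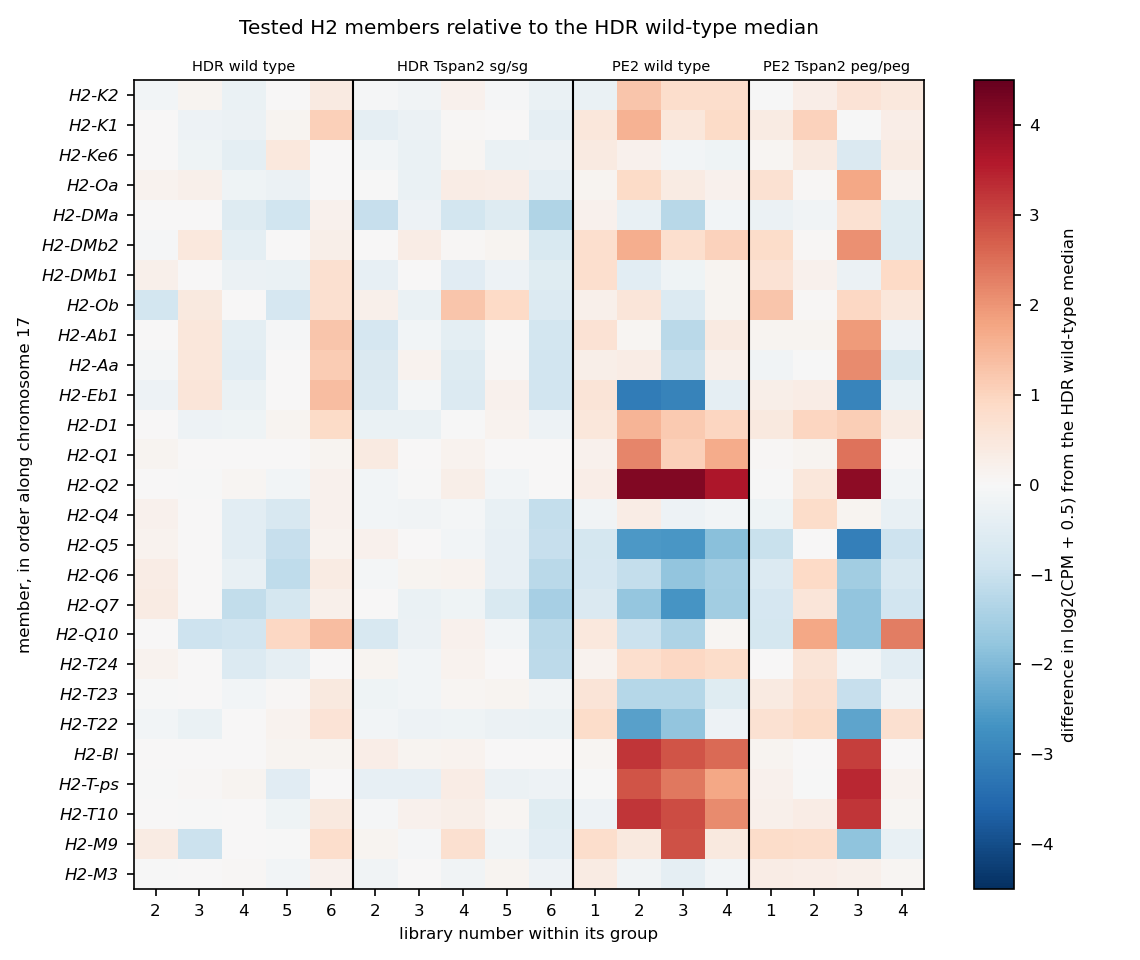
Difference of log2(CPM + 0.5) from the HDR wild-type median for the 27 members tested in any comparison (rows, in order along chromosome 17) in the 18 libraries (columns, numbered within 4 groups). Differences run from -1.51 to 1.39 in the HDR columns and from -3.15 to 4.18 in the PE2 columns, where H2-Q2, H2-Bl, H2-T-ps and H2-T10 are red and H2-Q5 and H2-Q7 are blue in wild types 2, 3 and 4 and peg/peg 3.

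The wild types of the experiments were compared with each other because the strain labels differ. Of 21 tested members, 8 passed an adjusted p of 0.05 (edgeR), or 38.1%, against 59.7% of all 16930 genes tested, so the members' share lay below the background. H2-T10, H2-DMb2, H2-T24, H2-D1 and H2-M9 were higher in PE2 wild types, and H2-Q6, H2-Q7 and H2-Q5 were lower. H2-T10 had the largest difference, from 1.27 ± 0.31 CPM in HDR (SD, n = 5) to 8.82 ± 6.28 CPM in PE2 (SD, n = 4), with a log2 fold change of 2.78 ± 0.60 (SE, edgeR adjusted p = 0.0021). Wild type 1 of PE2, at 0.93 CPM, lay below all 5 HDR wild types, so the groups overlapped. H2-DMb2, a beta chain of the DM molecule that loads class II, was at 0.61, 1.09, 0.35, 0.64 and 0.88 CPM in HDR wild types and at 1.45, 3.09, 1.42 and 1.87 CPM in PE2 wild types. It was the only 1 of the 21 tested members whose groups did not overlap, against 50.2% of all genes tested, with a log2 fold change of 1.45 ± 0.37 (SE, edgeR adjusted p = 0.0058). The untested H2-Q1 and H2-Q2 also did not overlap, at no more than 0.0507 and 0.125 CPM in HDR wild types and at least 0.0750 and 0.175 CPM in PE2 wild types, and the values of PE2 wild type 1 rest on 3 and 7 counts. H2-D1 had a log2 fold change of 0.91 ± 0.26 (SE, edgeR adjusted p = 0.010), although HDR wild type 6, at 450 CPM, exceeded PE2 wild type 1, at 352 CPM. Without PE2 wild type 2 it was 0.66 (adjusted p = 0.063). Its exact permutation p was 0.032, or 0.33 after adjustment over the 12 tests of the 4 markers, where the smallest p allowed is 0.016.

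H2-Q6, H2-Q7 and H2-Q5 had log2 fold changes of -1.21 ± 0.32, -1.43 ± 0.46 and -2.13 ± 0.66 (SE, edgeR adjusted p = 0.0069, 0.019 and 0.016). H2-Q6 was at 34.4, 27.5, 21.6, 12.2 and 35.6 CPM in HDR wild types, so that HDR wild type 5 lay below PE2 wild types 1 and 2. H2-T24 was at 5.57, 5.05, 3.07, 3.61 and 4.93 CPM in HDR wild types, a log2 fold change of 0.89 ± 0.23 (SE, edgeR adjusted p = 0.0063), and PE2 wild type 1 overlapped with them. H2-M9 had a log2 fold change of 1.67 ± 0.64 (SE, edgeR adjusted p = 0.043) that rested on PE2 wild type 3. Without that library it was 0.54 (adjusted p = 0.34), and without HDR wild type 2, 3, 4 or 5 the adjusted p was between 0.065 and 0.088. H2-K1, H2-Aa and H2-Ab1 had log2 fold changes of 0.70 ± 0.31, -0.30 ± 0.36 and -0.26 ± 0.40 (SE, edgeR adjusted p = 0.071, 0.49 and 0.61). H2-K1 passed without HDR wild type 6, at 0.93 (adjusted p = 0.0058). Without PE2 wild type 1, 16 of 25 tested members passed, against 58.1% of all 17256 genes. The filter was then run anew, and the members tested rose from 21 to 25. A member high in PE2 wild types 2 to 4 and nearly absent from HDR, such as H2-Q2, can enter through the group where it is high. The members' share therefore cannot be read against that of all genes.

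The mutants of the experiments also differ in allele, and only sg/sg includes males. Between them, 3 of 21 tested members passed, or 14.3%, against 51.5% of all 16596 genes. All 3 were higher in peg/peg. H2-D1 was called in both comparisons between experiments, here with a log2 fold change of 0.83 ± 0.20 (SE, edgeR adjusted p = 0.0060). The 2 comparisons share no library but carry the same differences in age, strain label and depth. They called 59.7% of all genes between the wild types and 51.5% here, and the share called in both was not counted. The lowest peg/peg library of H2-D1, at 317.003 CPM, lay above its highest sg/sg library, at 273 CPM. H2-D1 was the only 1 of the 21 tested members whose groups stayed apart, against 43.6% of all genes tested. No untested member had groups that stayed apart. H2-DMb1 was at 4.42, 5.90, 3.92, 4.87 and 3.86 CPM in sg/sg and at 9.30, 6.64, 4.77 and 11.3 CPM in peg/peg, a log2 fold change of 0.73 ± 0.26 (SE, edgeR adjusted p = 0.040). H2-K1 had a log2 fold change of 0.60 ± 0.21 (SE, edgeR adjusted p = 0.040), and peg/peg 3, at 188 CPM, overlapped with sg/sg. Only H2-D1 passed without sg/sg 2 or without sg/sg 6, H2-K1 also missed the threshold without sg/sg 3 or peg/peg 2, H2-DMb1 without sg/sg 4 or 5 or peg/peg 1 or 4, 5 members passed without peg/peg 3 and 6 without peg/peg 4. H2-T10 missed the threshold, with a log2 fold change of 1.97 ± 0.77 (SE, edgeR adjusted p = 0.055). Its level was 15.1 CPM in peg/peg 3 and 1.28 to 1.61 CPM in peg/peg 1, 2 and 4, against 0.64 to 1.51 CPM in sg/sg, so the difference rested mainly on peg/peg 3.

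**Figure D5:**
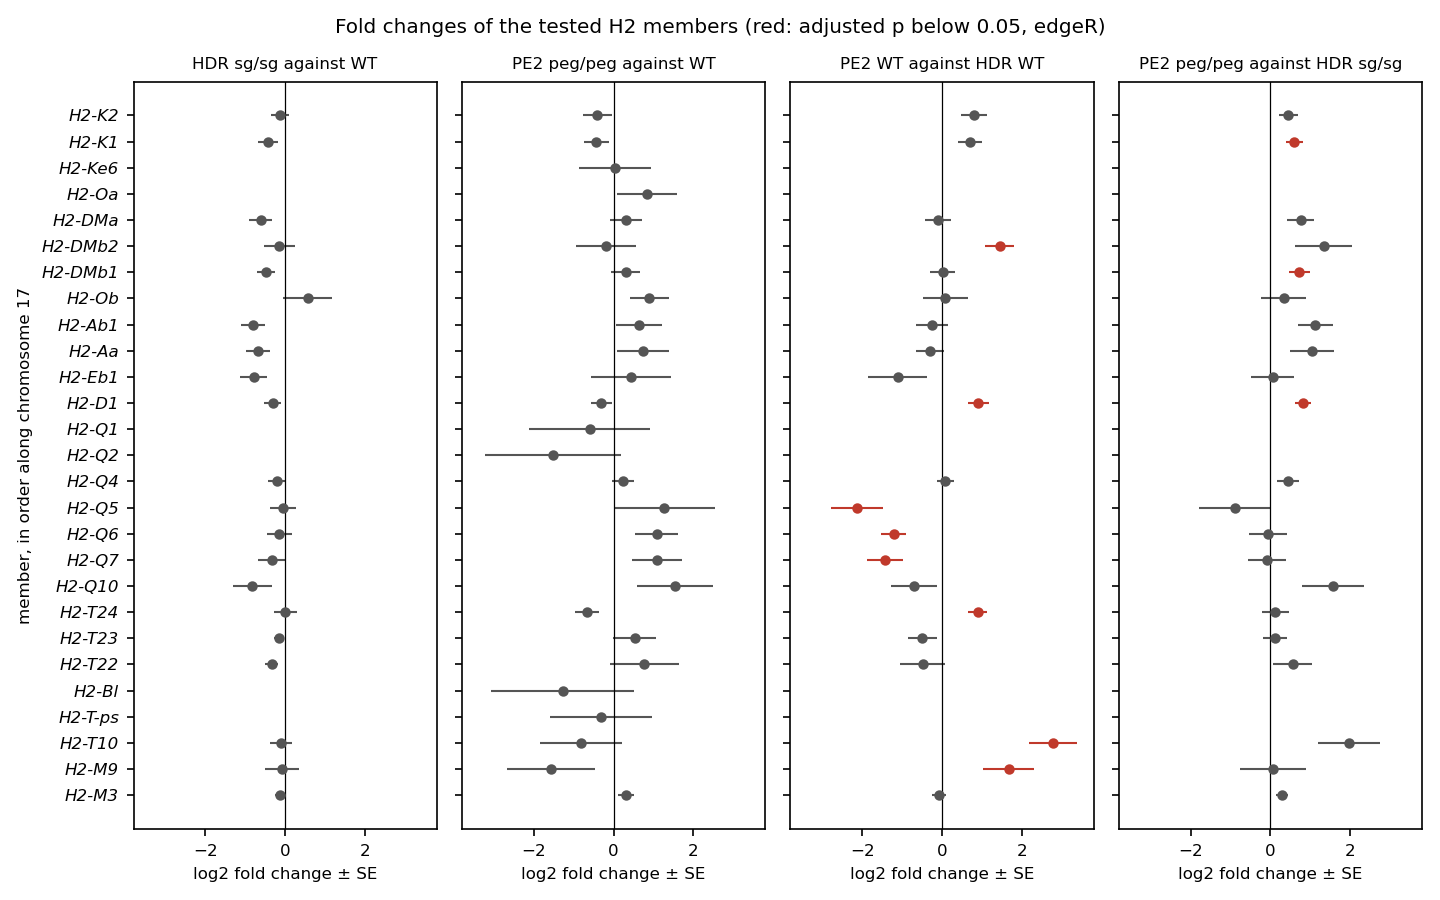
Log2 fold change with its SE from edgeR for the tested H2 members (rows, in order along chromosome 17) in 4 comparisons, with an adjusted p below 0.05 in red. No member is red within an experiment, 8 are red between the wild types and 3 between the mutants.

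The difference between the genotype effects of the 2 experiments was tested directly. None of 26 tested members passed (edgeR), with 2 at an unadjusted p under 0.05, against 0% of 18094 genes called and 929 at an unadjusted p under 0.05. These 2 were H2-Ab1, with a difference of 1.44 ± 0.64 in log2 fold change (SE, edgeR unadjusted p = 0.038, adjusted p = 0.95), and H2-Q10, a secreted class I gene of the liver, with 2.36 ± 1.05 (SE, edgeR unadjusted p = 0.039, adjusted p = 0.95). H2-Q10 was at 8.35, 2.76, 1.94 and 6.18 CPM in PE2 wild types and at 3.14, 20.8, 1.36 and 30.9 CPM in peg/peg. Peg/peg 2 and 4 were high and peg/peg 1 and 3 were not. The difference for H2-Ab1 was 0.67 without peg/peg 3.

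Genes of the surrounding pathways were read from lists. None of the 14 class I loading genes, the 11 class II pathway genes or the 15 regulators of class I passed in either within-experiment comparison (edgeR). In HDR their median log2 fold changes were -0.16, -0.024 and -0.11, and 1 gene of these lists, Cd74, the invariant chain that guides class II, reached an unadjusted p under 0.05, at -0.80 ± 0.34 (SE). In PE2 the medians were 0.037, 0.0050 and 0.021, and no gene of these lists did. Between the wild types, 7 of 14 class I loading genes passed, 6 higher and 1 lower in PE2, 6 of 11 class II pathway genes, 4 higher and 2 lower, and 9 of 15 regulators, 6 higher and 3 lower, against the 59.7% of all genes. Ciita, the class II transactivator, was at 8.26, 7.32, 4.61, 5.39 and 9.99 CPM in HDR wild types and 2.20, 1.07, 0.80 and 2.04 CPM in PE2 wild types, a log2 fold change of -2.21 ± 0.36 (SE, edgeR adjusted p = 0.00035). The groups did not overlap. Nlrc5, the class I transactivator, had a log2 fold change of -1.71 ± 0.34 (SE, edgeR adjusted p = 0.0013), while H2-D1 was higher and H2-K1 was not called. B2m, the light chain of class I, had 0.10 ± 0.22 (SE, edgeR adjusted p = 0.70). Of the other 277 genes that lie between the outermost members, none of 85 tested in HDR and none of 102 tested in PE2 passed. Between the wild types, 59 of 93 tested passed, or 63.4%, 53 of them higher in PE2. Of all genes, 59.7% passed there, 4914 higher and 5186 lower in PE2.

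The counts of some members are uncertain because their transcripts share sequence with other genes. The share of 75-base windows of a member's transcripts found in another gene's transcripts was 3.10% for H2-K1 and 5.56% for H2-D1, and 0% for H2-Aa, H2-Ab1, H2-Eb1, H2-M9 and H2-M3. It was 40.0% for H2-T22, mostly with A930015D03Rik, 36.0% for H2-T10, mostly with BC023719, 21.2% for H2-Q5, 21.1% for H2-Q6, 20.7% for H2-Q4 and 16.95% for H2-Q7. H2-DMb1 and H2-DMb2 shared 15.8% and 16.2%. These shares hold for the C57BL/6J sequence, and how reads of another haplotype were divided among these genes was not tested.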

How the data were processed

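RNA from single mouse aortas was sequenced in 18 libraries. The authors aligned reads with STAR (2.7.0f), counted them per gene with featureCounts of Subread (1.6.4) and normalised them with DESeq2 (1.22.1). The deposited tables hold raw read counts per gene, which were used in all tests, and a normalised signal per gene, which equals the deposited counts divided by the authors' DESeq2 size factors and was used only to check that. Columns with the authors' own fold changes and p-values were not used. The labels and the methods name different library kits and read lengths, and the strand setting of the counting is not given in the sources used here, so reads of overlapping or antisense genes cannot be told apart.

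PE2 columns were matched to labelled samples by name. HDR columns were matched only to their group, since their numbers do not occur in the labels, so sex could not be used there.

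Counts were filtered with edgeR's filterByExpr at its defaults, scaled by TMM and tested with edgeR (4.0.16, R 4.3.3) quasi-likelihood F tests over all genes of a comparison, using only the libraries of the 2 groups, or all 18 for the genotype by experiment term, with Benjamini-Hochberg adjustment and a threshold of 0.05. The procedure was tested on simulated data. Permutation tests were two-sided on CPM. Alternatives were DESeq2 size factors, the DESeq2 (1.42.0) Wald test, limma (3.58.1) voom, other count filters, robust dispersions, leaving out each library, and for PE2 a replicate block, sex as a covariate and females alone. No 2 libraries agreed within sampling noise. P-values measure the spread between the aortas sequenced.

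Named with values were the 4 markers, every member called in any comparison, the 3 highest per length and the members with the smallest p in each direction within an experiment. H2-Q2, H2-Bl, H2-T-ps, H2-Q1, H2-Eb1, H2-T22, H2-T23, H2-Ea-ps, H2-Q10 and the printed ratios were chosen for description after their values were seen. The members and lists were chosen with earlier results of these data known. Intervals and count limits cover counting error only.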

Additional observations from a re-analysis of the deposited data

Results flagged for a closer look

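Within groups of 4 or 5 libraries, 15 of 96 member-by-group sets of CPM had a highest or lowest library whose gap to its nearest neighbour was large for the range of the group. Chance would flag about 1 in 20 sets of independent, normally distributed values, or 4.8 here. These sets are CPM on a linear scale, and members of 1 library are not independent of each other. H2-Q1, H2-Q2, H2-Bl and H2-T-ps also passed the PE2 count filter through the libraries where they were high, peg/peg 3 among them. The number flagged therefore cannot be read as an excess over chance. HDR wild type 6 was the highest of its group for H2-K1 at 399 CPM with the next at 210.01 CPM, for H2-D1 at 450.2 CPM with the next at 269.8 CPM, for H2-T23 at 39.3 CPM with the next at 29.8 CPM, and for H2-T10 at 1.80 CPM with the next at 1.216 CPM.

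PE2 peg/peg 3 was the highest of its group for both chains of the A molecule, H2-Aa at 197 CPM with the next at 43.7 CPM and H2-Ab1 at 101 CPM with the next at 29.4 CPM. It was also the highest for 5 class I genes or pseudogenes. H2-T10 was at 15.1 CPM with the next at 1.61 CPM, H2-Q2 at 8.42 CPM with the next at 0.293 CPM, and H2-T-ps at 6.95 CPM with the next at 0.314 CPM. H2-Bl was at 3.83 CPM with the next at 0.0483 CPM, and H2-Q1 was at 2.19 CPM with the next at 0.0488 CPM. The same library was the lowest of its group for H2-T22, at 4.29 CPM with the next at 39.3 CPM.

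PE2 wild type 3 was the lowest of its group for H2-Aa at 21.1 CPM, with the next at 52.6 CPM, and the highest for H2-M9 at 12.8 CPM, with the next at 2.65 CPM. PE2 wild type 2 was the highest for H2-Q4 at 51.5 CPM, with the next at 37.5 CPM. No cause was tested for any of these values.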

How the results depend on the processing

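The count of members called was 0 under every alternative run for sg/sg against HDR wild type, peg/peg against PE2 wild type and the genotype by experiment term, each with edgeR, DESeq2 and limma-voom. Between wild types the 8 calls became 13 with the DESeq2 Wald test, 15 with no filter beyond 1 count in total and 5 with at least 10 counts in every library, filters that change the members tested to 37, 37 and 17. They ran from 7 to 16 when 1 library was left out, with 16 without PE2 wild type 1. Between mutants the 3 calls became 6 with no filter, and ran from 1, without sg/sg 2 or 6, to 6, without peg/peg 4, with 5 without peg/peg 3. H2-T10 between wild types was not called with limma-voom, at 2.22 (adjusted p = 0.076). The cause of these shifts was not tested otherwise.

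With 1 library left out, the log2 fold change in PE2 ran from -0.31 to 1.01 for H2-Aa and from -0.13 to 0.86 for H2-Ab1, turning negative without peg/peg 3. H2-Ab1 between wild types ran from -0.47 to 0.026, turning positive at 0.0040 without HDR wild type 6 and at 0.026 without PE2 wild type 3. The genotype by experiment difference, near 0, ran from -0.36 to 0.25 for H2-K1 and from -0.27 to 0.15 for H2-D1.

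The PE2 libraries share replicate numbers, and the fit with a replicate block called 0 members, with 1 at an unadjusted p under 0.05, and 0 of all genes. Deviations of same-numbered libraries correlated at 0.033, -0.24, -0.058 and -0.29, so the numbers were not read as pairs. With sex as a covariate, or with females alone, 0 members were called. The spread and range counts without peg/peg 3, and the H2-Eb1 and macrophage values without HDR wild type 6, were chosen after seeing the data. A depth of 17290992 counts in the smallest HDR library limits what can be seen of the 16 members with counts that were never tested.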

Other observations

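The peptide loading members also differed among PE2 libraries. The ratio of H2-DMb2 to H2-DMb1 counts, 2 beta chains of the DM molecule, ran from 0.056 to 0.187 over the HDR libraries. It was 0.143, 0.756, 0.279 and 0.293 in PE2 wild types 1 to 4 and 0.166, 0.103, 0.899 and 0.024 in peg/peg 1 to 4, so that wild types 2, 3 and 4 and peg/peg 3 lay above the HDR range and peg/peg 4 below it. The ratio of H2-D1 to H2-K1 counts ran from 1.13 to 1.44 over the HDR libraries and stood above that range in PE2 wild type 3, at 2.02, and peg/peg 3, at 2.83. The ratio of H2-Q6 to H2-Q4 counts ran from 0.493 to 0.810 over the HDR libraries and was below that range in PE2 wild types 1 to 4, at 0.433, 0.247, 0.220 and 0.243, and in peg/peg 3, at 0.2002. These ratios were chosen after the values were seen.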
